A study of Mus musculus with 4 samples.

Results

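Transcript levels of 10 genes that remove, build or read ubiquitin chains on the NF-kB pathway were examined in mouse regulatory T (Treg) cells with and without CYLD. They are Cyld and its partner Spata2, the linear ubiquitin ligase genes Rnf31, Rbck1 and Sharpin, and the group around A20, namely Tnfaip3, Tnip1, Tnip2, Otud7b and Tax1bp1. Members were taken by name, from probe sets annotated with exactly 1 gene symbol, out of 19938 genes with such a probe set. Each of the 10 had a single probe set, and all 10 passed the filter on dim genes, as did 13956 genes in all.

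Treg cells, which hold other immune cells in check, are CD4 T cells defined by the transcription factor Foxp3. On 4 Affymetrix arrays the study compared 2 of wild-type (WT) cells, genotype Cyld+/+ Foxp3-yfp-cre, with 2 of knockout (CYLD KO) cells, genotype Cyld fl/fl Foxp3-yfp-cre. The mice were C57Bl6 and aged 6 to 8 weeks. The WT mice carried the same Foxp3-driven Cre recombinase with yellow fluorescent protein (YFP), so by their labels the groups differ in the floxed Cyld alleles. Whether Cre acted only in cells that express Foxp3 was not examined. YFP-positive cells were sorted. One label field names spleen and lymph nodes as the tissue and another the spleen alone, and nothing states whether the replicates are different mice. The p-values rest on the spread between these samples, averaged over genes and not taken gene by gene. That spread may be technical, though between the knockout arrays it includes the differences in sex-linked genes given below. The number of arrays limits the precision.

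Signals such as tumour necrosis factor and the T cell receptor activate NF-kB through scaffolds of lysine-63-linked and linear (methionine-1-linked) ubiquitin chains. The linear ubiquitin chain assembly complex (LUBAC) makes the linear chains, with HOIP (encoded by Rnf31) as its catalytic subunit and HOIL-1 (Rbck1) and SHARPIN as partners. CYLD cuts both kinds of chain and is brought to LUBAC by SPATA2. A20 (Tnfaip3) edits and binds chains with the help of the adaptors ABIN1 (Tnip1), ABIN2 (Tnip2) and TAX1BP1, and Cezanne (Otud7b) is a related deubiquitinase. In many cell types the A20 and ABIN1 genes are themselves induced by NF-kB, which makes them brakes that the pathway feeds.

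The sorted cells carried the T cell and Treg transcripts that their label calls for. All 7 markers of this kind were bright on every array, with intensities from 1059 to 3615: Foxp3, Il2ra, Ctla4, Ikzf2, Tnfrsf18, Cd4 and Cd3e. None of these 7 was past the threshold between the groups, but Il2ra (log2 difference -0.45, limma adjusted p = 0.0831) passed with 16 added before the logarithm (0.0473) and with an intensity trend in the variance model (4.76e-04). Array medians lay between 99.0 and 105, and the lowest value in the table was 26.6, so an intensity near the bottom of the scale is not a zero and dim genes show understated folds. Of 12 tested macrophage markers, 10 were lower and 1, Axl, was higher in the knockout. The intensities of the 15 macrophage markers with a probe set summed to 3674 and 3524 on the WT arrays and, in the knockout, to 3110 and 3500. Without Axl, left out after its value was seen, the sums were 2711 and 2525 against 1191 and 1438. None of the 15 was listed at 0. All 9 tested proliferation markers were higher in the knockout and brighter on knockout replicate 2 (summed intensity 7246) than on replicate 1 (4248). The same array read 127 for the Y-linked gene Kdm5d, against 268 on knockout replicate 1 and 271 and 275 in WT. Xist, expressed from the inactive X chromosome of females, read 1306 and 1403 in WT and 1630 and 2321 in the knockout. Kdm5d and Eif2s3y (lower) and Xist (higher) were past the threshold, with limma adjusted p-values of 0.0160, 0.00242 and 0.0291. Uty, a further Y-linked gene, missed it (log2 difference -0.20, limma adjusted p = 0.545). Its intensity of 283 on knockout replicate 1 exceeded both WT values (225 and 220), while replicate 2 gave 132. The Eif2s3y groups overlapped, since its 221 on knockout replicate 1 fell between the WT values of 253 and 219. For Kdm5d, Eif2s3y and Uty the low value was on knockout replicate 2 alone, while Xist was higher on both knockout arrays. The labels give no sex, and the part of sex in the differences between the groups was not tested. In bulk samples such as these, fewer cells of a type and less RNA per cell cannot be told apart, and the part of these shifts in the results that follow was not tested.

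Tnfaip3 and Tnip1, the members with the largest differences after Cyld, are shown with the sequence before their start sites, because each holds a match to a kappa-B-like motif, the kind of site that NF-kB binds. The motif searched was GGGNNTTCC, whose reverse complement is GGAANNCCC, on both strands of the window from 250 bases before to 50 bases after each RefSeq gene start (build GRCm38.p6). It was chosen after these promoters had been read, so the matches are a description. Matches are in capitals, and the sequences run 5′ to 3′ along the strand of the gene.
Tnfaip3, chr10:19015411-19015560, minus strand, the 150 bases before the start site: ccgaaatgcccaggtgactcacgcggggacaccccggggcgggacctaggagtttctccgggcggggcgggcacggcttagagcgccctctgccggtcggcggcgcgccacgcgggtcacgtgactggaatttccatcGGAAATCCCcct
Tnip1, chr11:54962961-54963090, minus strand, 130 bases ending 21 bases before the start site: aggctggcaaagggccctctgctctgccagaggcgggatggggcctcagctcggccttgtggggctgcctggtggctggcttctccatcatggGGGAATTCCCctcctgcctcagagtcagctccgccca
The Tnfaip3 match starts 12 bases before the start site and reads GGGATTTCC on the other strand. In Tnip1 the capitals hold 2 overlapping matches, with a strand each, which start 57 and 56 bases before the start site and both read GGGAATTCC.

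Promoter windows were found for 8 members, with 11 start sites. The motif lay in the windows of 2 of these 8 genes, and in 6.58% of all 27025 genes with a window. By window, 2 of 11 held it, against 5.82% of 32851, since an inner start site of Tnfaip3 had none. Cyld, Rnf31, Rbck1, Spata2, Tnip2 and Tax1bp1 had no match, which says only that these letters are not in these windows. With 3 free bases in the middle in place of a pair, the motif lay in 3 members, Cyld joining Tnfaip3 and Tnip1, and in 6.31% of all genes. Sharpin and Otud7b had no entry. Of 15 NF-kB feedback and target genes with a window, 5 held the motif as first written.

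**Figure D1:**
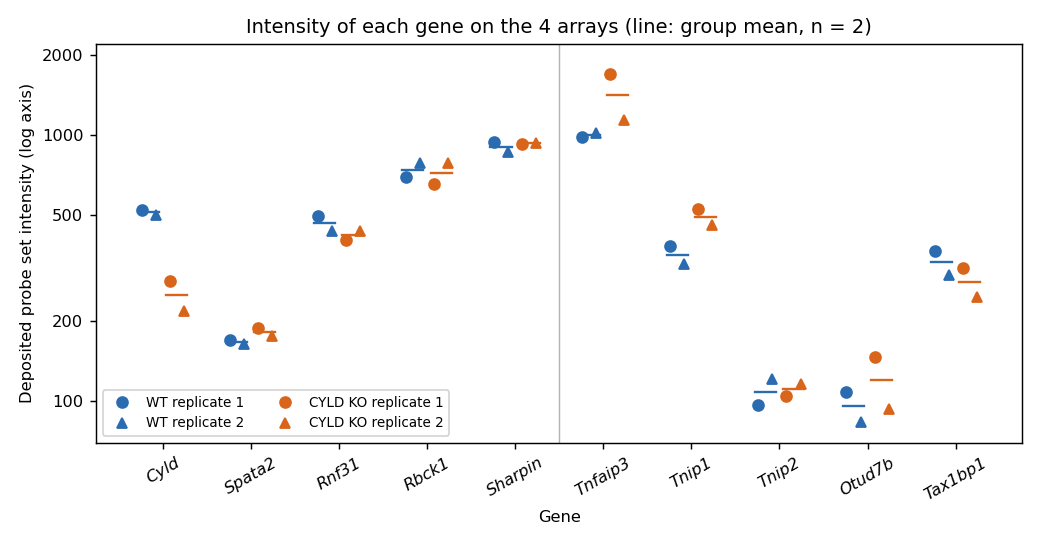
Deposited probe set intensity (log axis) of the 10 genes on each array, with WT in blue and CYLD KO in orange, circles for replicate 1, triangles for replicate 2 and lines for the group means (n = 2). Cyld is lower on both knockout arrays, Tnfaip3 and Tnip1 are higher on both, and the LUBAC genes Rnf31, Rbck1 and Sharpin overlap between the groups.

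Cyld, the targeted gene, was the only member past the threshold. Its intensity was 524 and 502 in WT and 284 and 218 in the knockout. The groups are far apart, and the knockout values differ more from each other than the WT values do. The knockout mean of 251 ± 46.5 was 48.9% of the WT mean of 513 ± 15.3 (SD, n = 2). On the scale of log2(intensity + 1), used for every difference here, Cyld fell by 1.04 ± 0.17 (SE), with a 95% interval from -1.37 to -0.71 and a limma adjusted p = 8.89e-08. That interval spans 38.6% to 61.2% of the WT level. In all, 1 of the 10 members was past the threshold, beside 8.29% of the genes tested (4.79% higher and 3.50% lower). Leaving out any 1 array kept Cyld past the threshold, with differences from -1.23 to -0.85 and adjusted p-values up to 0.00139. The labels do not say which exons were floxed, and where the probe set lies in the gene was not examined. The signal left therefore does not measure how complete the deletion was. A fit with no pooling of variances over genes called 0 genes (1813 had an unadjusted p under 0.05) and gave Cyld an adjusted p = 0.342.

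The pattern of Cyld over the 4 arrays was compared with that of every tested gene, by the Euclidean distance between log2 values centred on each gene's mean. The nearest genes were Qser1 (distance 0.099), A530021J07Rik (0.117) and Pip5k1b (0.153). Pip5k1b encodes a phosphatidylinositol phosphate kinase. It read 143 and 129 in WT and 68.4 and 60.0 in the knockout, a log2 difference of -1.08 (limma adjusted p = 2.62e-08). Qser1 read 291 and 285 in WT and 159 and 132 in the knockout. They were chosen for their nearness to Cyld, so a fall of similar size follows from the choice. Cyld itself ranked 36th among falls.

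SPATA2 bridges CYLD to the HOIP subunit of LUBAC. Spata2 read 170 and 164 in WT and 189 and 175 in the knockout. Both knockout values lay above both WT values, by a small margin. The log2 difference of 0.12 ± 0.17 (SE) did not pass, with a 95% interval from -0.21 to 0.45 and a limma adjusted p = 0.746. Arrays did not overlap between the groups for 4 of the 10 members (Cyld lower, and Spata2, Tnfaip3 and Tnip1 higher), beside 48.7% of all genes tested (22.5% higher and 26.2% lower), so separated arrays alone set no member apart.

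None of the 3 LUBAC genes was past the threshold. Rnf31, which encodes the catalytic subunit, read 498 and 436 in WT and 404 and 437 in the knockout. Rbck1 read 698 and 783 in WT and 658 and 784 in the knockout. Sharpin read 946 and 863 in WT and 927 and 938 in the knockout. For each of these genes the ranges of the groups overlapped. The log2 differences were -0.15 for Rnf31, -0.04 for Rbck1 and 0.05 for Sharpin, with limma adjusted p-values of 0.673, 0.922 and 0.914. The 95% intervals ran from -0.48 to 0.18, from -0.37 to 0.29 and from -0.29 to 0.38. Knockout levels between 71.6% and 113% of WT for Rnf31, 77.2% and 122% for Rbck1, and 82.0% and 130% for Sharpin lie within them. A miss of the threshold does not show that the levels were equal, but a 2-fold change of any of these 3 genes lies outside its interval. The signs for Rbck1 and Sharpin turned when single arrays were left out (Rbck1 0.04 without WT replicate 2 and 0.09 without knockout replicate 1, Sharpin -0.02 without WT replicate 2).

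Tnfaip3 and Tnip1, the genes of A20 and its adaptor ABIN1, had nearly the same mean difference and lay just short of the threshold. Tnfaip3 read 984 and 1017 in WT and 1690 and 1137 in the knockout. Knockout replicate 1 stood far above the other 3 arrays, and replicate 2 was only slightly above WT. The knockout mean was 141% of the WT mean, and the log2 difference was 0.47 ± 0.17 (SE, 95% interval 0.14 to 0.80, limma adjusted p = 0.0620). Tnip1 read 382 and 327 in WT and 526 and 458 in the knockout. Here the knockout arrays lay closer together, and both were above both WT arrays. The knockout mean was 139% of the WT mean, and the log2 difference was 0.47 ± 0.17 (SE, 95% interval 0.14 to 0.80, limma adjusted p = 0.0607). Since the fit gave every gene the same standard error, calls began at an absolute log2 difference of 0.49, or 1.40-fold, and both genes lay just below it.

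**Figure D2:**
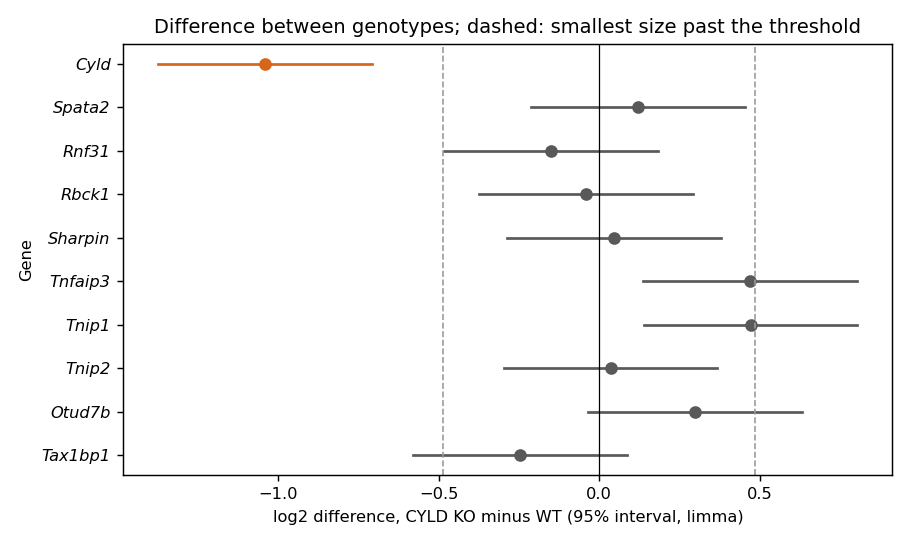
Log2 difference between CYLD KO and WT of each gene (point) with its 95% interval from limma (line), in orange where past the threshold. Cyld lies at -1.04, Tnfaip3 and Tnip1 at 0.47 just inside the dashed line at 0.49, and the intervals of the other 7 genes include 0.

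The near misses of Tnfaip3 and Tnip1 turned on settings and on single arrays. Both passed with quantile normalization (limma adjusted p = 0.0383 for Tnfaip3 and 0.0429 for Tnip1), with 16 added before the logarithm (0.0349 and 0.0405) and with an intensity trend in the variance model (0.00391 and 0.0435). Without knockout replicate 2 they passed as well, at 0.76 (adjusted p = 0.00149) for Tnfaip3 and 0.57 (0.0314) for Tnip1. Without knockout replicate 1 the differences were 0.18 (0.504) and 0.37 (0.153). Without WT replicate 1 the differences were 0.45 for Tnfaip3 and 0.59 for Tnip1, and without WT replicate 2 they were 0.49 and 0.36.

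Between the knockout replicates Tnfaip3 differed by 0.57 on the log2 scale, a gap wider than that of 97.4% of the tested genes, while its WT gap of -0.05 was wider than that of 18.4%. Tnip1 had a knockout gap of 0.20, wider than that of 51.3%. Among 20 tested immediate early genes, which respond to recent stimulation and to cell handling, 15 were brighter on knockout replicate 1 than on replicate 2, with a median gap of 0.21, beside a median of 0.03 over all tested genes. Other lists leaned the same way, with 34 of 42 tested Usp genes (median gap 0.19) and 17 of 20 tested conjugating enzymes and ligases (0.20). The lean was thus not particular to the immediate early genes. Of 17 tested NF-kB feedback and target genes 12 were brighter on replicate 1, with a median gap of 0.06. All 9 tested proliferation markers went the other way, with a median gap of -0.73. The part of any of these in the Tnfaip3 values was not tested. The genes nearest to Tnfaip3 in pattern were Arhgef5 (distance 0.066), Lyst (0.087) and Abcb1a (0.089), and 46 genes lay within a distance of 0.2, against 5 for Cyld. Lyst, the gene of a lysosomal trafficking regulator, read 222 and 234 in WT and 386 and 242 in the knockout. Its high value on knockout replicate 1 alone follows from its choice by nearness to Tnfaip3. Arhgef5 read 111 and 108 in WT and 186 and 128 in the knockout, with a log2 difference of 0.49 and a limma adjusted p = 0.0454. That call was lost without knockout replicate 1 (0.403), WT replicate 1 (0.378) or WT replicate 2 (0.377), with the replicate number as a block (0.0667), with an intensity trend (0.0765) and with no filter (0.0501).

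Otud7b, the gene of the deubiquitinase Cezanne, shared the high value on knockout replicate 1. It read 108 and 83.4 in WT and 146 and 93.6 in the knockout, so the second knockout array fell between the WT arrays. The log2 difference was 0.30 ± 0.17 (SE, 95% interval -0.03 to 0.63, limma adjusted p = 0.319). Its gaps were wide in both groups, 0.37 in WT and 0.64 in the knockout, wider than those of 92.9% and 98.8% of the tested genes. Without knockout replicate 2 it passed (0.62, adjusted p = 0.0175), and without knockout replicate 1 the difference was -0.02.

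The remaining adaptors did not pass the test. Tnip2, the ABIN2 gene, read 96.5 and 121 in WT and 105 and 117 in the knockout, with both knockout values inside the WT range. Its log2 difference was 0.04 (95% interval -0.30 to 0.37, limma adjusted p = 0.933) and turned to -0.12 without WT replicate 1 and -0.04 without knockout replicate 2. Tax1bp1, whose product is also an autophagy receptor, read 368 and 299 in WT and 315 and 248 in the knockout. The groups overlapped, and in each of them replicate 1 was the brighter array. The log2 difference was -0.25 (95% interval -0.58 to 0.09, limma adjusted p = 0.431) and stayed below 0 with any array left out.

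**Figure D3:**
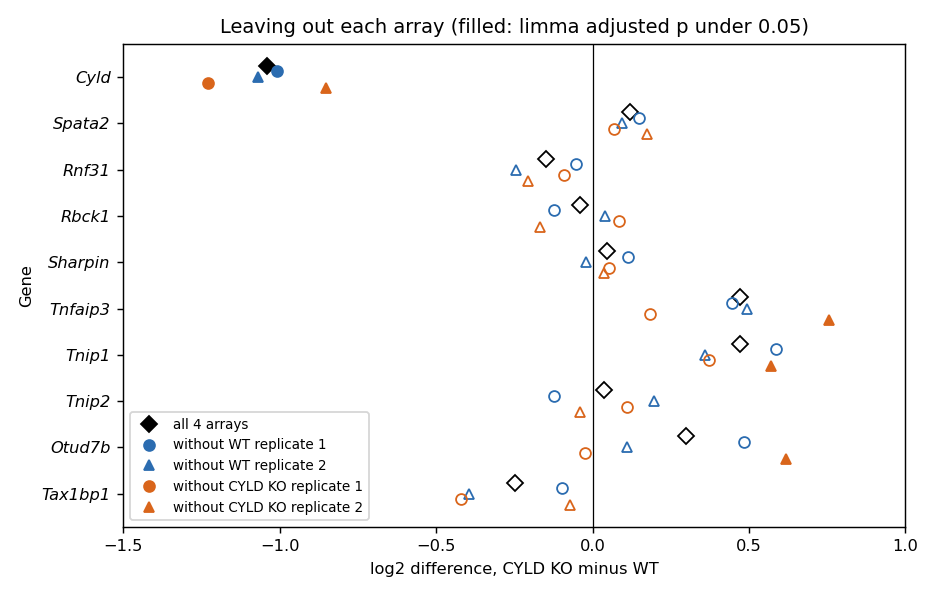
Log2 difference between CYLD KO and WT of each gene over all 4 arrays (diamonds) and with each array left out (blue, a WT array; orange, a knockout array), filled where the limma adjusted p is under 0.05. Cyld is past the threshold each time, while Tnfaip3, Tnip1 and Otud7b pass only without CYLD KO replicate 2 and move from 0.76, 0.57 and 0.62 there to 0.18, 0.37 and -0.02 without replicate 1.

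Over the 10 members the median log2 difference was 0.04, beside -0.02 over all tested genes, and 6 of 10 lay above 0. The 5 genes of CYLD, SPATA2 and LUBAC had a median of -0.04, and the 5 of the A20 group 0.30. No test was made of these medians. With the sample labels of a single gene permuted, 2 arrays against 2 cannot give an exact two-sided p below 0.333. Apart from the fit named as having no pooling, the adjusted p-values here draw on a variance pooled over genes. In the main fit that variance was the same for every gene, so intervals and p-values do not reflect a gene's own replicate gap.

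Lists of other genes of the same biochemistry are set beside the 8.29% of all tested genes that were called (4.79% higher and 3.50% lower). Of 23 further deubiquitinases of NF-kB signalling 22 were tested, and 0 were higher and 2 lower (limma, adjusted p under 0.05), with a median of -0.15. The lower genes were Usp18, a protease for ISG15, a relative of ubiquitin, and Stambpl1, a lysine-63-specific metalloprotease. Stambpl1 read 777 and 829 in WT and 465 and 484 in the knockout, a log2 difference of -0.76 (limma adjusted p = 2.98e-04), with an adjusted p of 0.0676 without WT replicate 2. Usp18 fell by 1.54 on the log2 scale (limma adjusted p = 4.95e-17). Otulin, the deubiquitinase specific to linear chains, was named for its role after its values were seen. It read 203 and 152 in WT and 188 and 150 in the knockout, and its log2 difference of -0.06 did not pass (limma adjusted p = 0.873).

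Among 20 tested conjugating enzymes and ligases, 1 was higher and 1 lower, with a median of 0.05. That is about the share called over all genes (4.79% higher and 3.50% lower). Birc2, the gene of the ligase cIAP1, read 317 and 324 in WT and 545 and 458 in the knockout, a log2 difference of 0.64 (limma adjusted p = 0.00396). Trim25, a ligase of antiviral signalling, had a difference of -0.54 (limma adjusted p = 0.0216). Neither passed without WT replicate 1 (0.158 and 0.180) or without WT replicate 2 (0.117 and 0.382), and Trim25 had 0.0704 without knockout replicate 2. With knockout replicate 1 left out, more genes were lower, both in this list and over all tested genes.

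Of 23 listed readers and substrates of the chains, 19 had a probe set and were tested, and 0 were higher and 2 lower, with a median of -0.05. Over all genes 8.29% were called and 3.50% were lower. Tnfrsf1a, the gene of TNF receptor 1, read 229 and 193 in WT and 133 and 143 in the knockout (log2 difference -0.61, limma adjusted p = 0.00728). Ikbkb, the kinase IKK-beta, had a difference of -0.66 (limma adjusted p = 0.00261). Without WT replicate 1 their adjusted p-values were 0.435 and 0.169, and without WT replicate 2 they were 0.0565 and 0.0723. Here too, more genes were lower with knockout replicate 1 left out, in this list as over all tested genes.

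Calls among NF-kB feedback and target genes were all in the higher direction. Of 17 tested, 8 were higher and 0 lower (limma), with a median log2 difference of 0.46, beside 4.79% of all genes higher and a median of -0.02 over all genes. They include the IkB genes Nfkbia, Nfkbie and Nfkbib and the noncanonical subunits Nfkb2 and Relb. Relb read 195 and 170.5 in WT and 331.5 and 323 in the knockout, a log2 difference of 0.84 (limma adjusted p = 3.92e-05), and Nfkbie 557 and 518 in WT and 966 and 873 in the knockout (0.77, 2.04e-04). Nfkb2 and Nfkbia had differences of 1.05 and 0.93. Icam1, the adhesion molecule ICAM-1, had 0.69 (limma adjusted p = 0.00146). Of the 17 tested genes, 12 lay above 0, while Nfkbid, Nfkbiz, Rel, Tnf and Zc3h12a lay below 0 without passing. The lowest, Nfkbid, read 370 and 317 in WT and 263 and 241 in the knockout (-0.44, limma adjusted p = 0.0917). With either WT array left out, fewer genes were higher, both in this list and over all tested genes. Icam1 missed the threshold in both of those fits, and Nfkbie without WT replicate 2. With single arrays left out, the differences ran from 0.70 to 0.85 for Nfkbie and from 0.58 to 0.80 for Icam1. The difference of 0.47 for Tnfaip3 and Tnip1 lay beside the median of this list, which does not contain them. Values in the list ran from -0.44 to 1.05, and it was chosen with earlier results of these data known. That placement is therefore only a description. The macrophage markers given above were lower on the same knockout arrays, and their part in these counts was not tested.

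**Figure D4:**
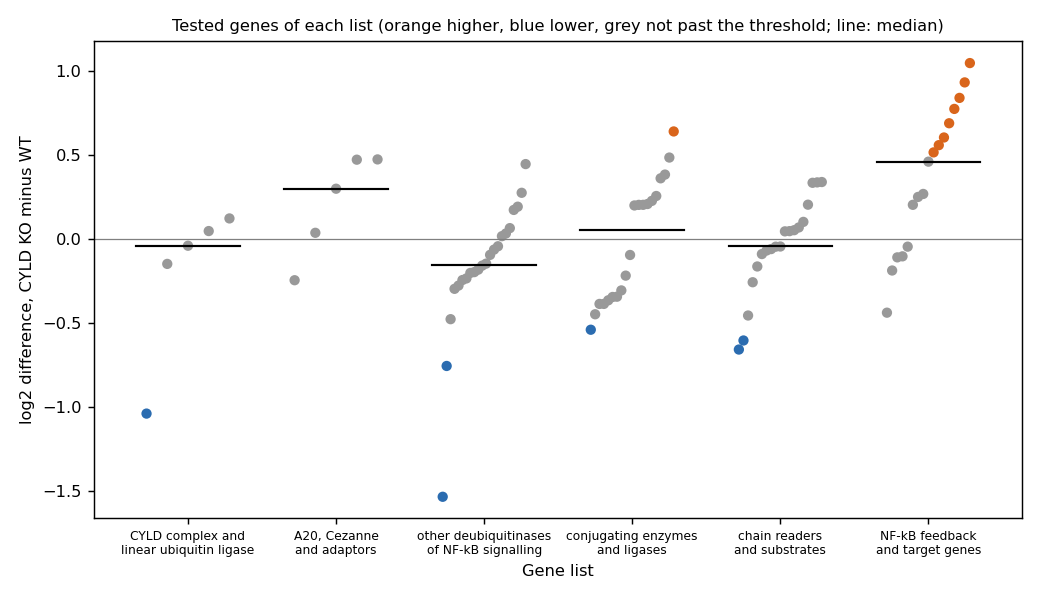
Log2 difference between CYLD KO and WT of every tested gene in each list, in orange where higher, blue where lower and grey where not past the threshold, with the list median as a line. In the CYLD and LUBAC group Cyld alone is called, the A20 group has a median of 0.30 with no call, and 8 of 17 NF-kB feedback and target genes are higher.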

How the data were processed

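The values used are 1 intensity per probe set and array on a linear scale, as deposited by the authors. RNA was column-purified and turned into biotin-labelled cRNA, per the labels' protocols. The authors' background correction, summary and scaling are not given in the sources used. Names came from the platform's 2016 annotation: among 35557 probe sets, 21789 carried exactly 1 symbol, 1621 several and 12147 none listed, and 21698 matched a RefSeq gene of GRCm38.p6 by Entrez identifier.

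Intensities were converted to log2(intensity + 1). Per gene the probe set with the highest mean over the 4 arrays was kept. Genes whose mean log2 value exceeded the 30th percentile, 6.29, entered the test with limma 3.58.1 in R 4.3.3 (lmFit, eBayes, 2 residual degrees of freedom), with Benjamini-Hochberg adjustment over all 13956 genes and a threshold of 0.05. The prior degrees of freedom in eBayes were infinite, so every gene was given the same variance. On data simulated for this comparison, with 13956 genes, 44.6% of 1.5-fold, 98.4% of 2-fold and 100% of 4-fold changes were recovered. False calls numbered 4.2 per run. The simulation drew independent normal values with the same SD for every gene and group, as the fit assumes. Real replicate gaps had an SD of 0.206 in WT and 0.269 in CYLD KO, so these rates may not hold for these arrays. Replicates correlated at r = 0.985 in WT and 0.974 in CYLD KO across genes.

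The members, lists, alternatives and rule for named genes were chosen with earlier results of these data known. The rule names all 10 members, up to 5 called genes per list and direction, 7 Treg and T cell markers, and the 3 genes nearest in pattern to Cyld and to Tnfaip3. Markers of stroma and endothelium, platelets, granulocytes and erythroid, B, plasma, CD8 T, NK and dendritic cells were also counted. Of 2 tested NK cell markers, Eomes was past the threshold (higher) and Klrb1c was not (log2 difference -0.07). Of 4 tested markers of stroma and endothelium, only Pecam1 passed (lower). No marker of the other cell types passed. Alternatives covered the filter, scaling, pseudocount, variance model, array weights, probe sets, the replicate number and leaving out each array.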

Additional observations from a re-analysis of the deposited data

How the results depend on the processing

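Alternatives were run on the 10 members, the counts of genes and the lists. Cyld kept its direction and its side of the threshold in 9 of 10 alternatives besides leaving out arrays, and lost the call (-1.04, adjusted p = 0.342) with no pooling of variances, which called 0 genes in either direction and 0 list genes. Tnfaip3 and Tnip1 went past the threshold with quantile normalization (0.49 and 0.48), with 16 added before log2 (0.46 and 0.46) and with an intensity trend (0.47 and 0.47). The other 7 members kept direction and side under every alternative that left all arrays in, though Tnip2 and Otud7b had no value among genes above the median level. With arrays left out in turn, Cyld ran from -1.23 to -0.85, Spata2 from 0.068 to 0.17, Rnf31 from -0.25 to -0.054, Rbck1 from -0.17 to 0.085, Sharpin from -0.020 to 0.11, Tnfaip3 from 0.18 to 0.76, Tnip1 from 0.36 to 0.59, Tnip2 from -0.12 to 0.20, Otud7b from -0.023 to 0.62 and Tax1bp1 from -0.42 to -0.073. The Cd3e difference also turned, with a range from -0.13 to 0.15, and Il2ra passed with 16 added and with an intensity trend. Genes higher numbered 669 with all arrays and 254 to 919 with 1 left out, and genes lower 488 and 118 to 767. Over the ubiquitin and NF-kB lists, 3 to 10 genes were higher and 1 to 13 lower. Causes were not tested. The deviations of same-numbered samples correlated at -0.0920 over genes. A single value from so few arrays cannot show whether same-numbered samples share more than a number. With the replicate number as a block, 603 genes were higher and 428 lower, Cyld stayed past the threshold, and Tnfaip3 and Tnip1 had adjusted p-values of 0.0882 and 0.0864. Tnip2 and Otud7b were the dimmest members, with signal near the array medians (99.0 to 105), and their folds may be understated.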

Other observations

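CYLD belongs by its catalytic domain to the ubiquitin-specific proteases, the largest family of deubiquitinases. Of 49 Usp genes with a probe set 42 were tested, and 0 were higher and 3 lower in the knockout (limma, adjusted p under 0.05), with a median log2 difference of -0.18 beside -0.02 over all tested genes. Over all tested genes 8.29% were called and 3.50% were lower, so 3 of 42 is near the background. Of the 42, 14 lay above 0. Besides Usp18, the lower genes were Usp3, a histone deubiquitinase, and Usp24. Usp3 read 993 and 996 in WT and 670 and 660 in the knockout, a log2 difference of -0.58 (limma adjusted p = 0.0114). Usp24 read 714 and 674 in WT and 510 and 444 in the knockout (-0.54, limma adjusted p = 0.0208). Usp3 and Usp24 missed the threshold with either WT array left out, while Usp18 passed. In those fits fewer genes were lower over all tested genes as well. Usp24 also missed the threshold without CYLD KO replicate 2.

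Among the immediate early genes, 1 of 20 tested was higher and 1 lower, about the share over all genes (4.79% higher and 3.50% lower). Nr4a2, an orphan nuclear receptor induced by T cell receptor signals, read 273 and 247 in WT and 694 and 503 in the knockout, a log2 difference of 1.18 (limma adjusted p = 5.03e-10). Like Tnfaip3 and Otud7b it was brighter on knockout replicate 1, but both knockout values were well above WT. Myc read 878 and 847 in WT and 425 and 437 in the knockout (lower, limma adjusted p = 3.51e-07). With knockout replicate 2 left out, more immediate early genes were higher, while fewer genes were higher over all tested genes. With knockout replicate 1 left out, more were lower, both in this list and over all tested genes.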
